A study of Mus musculus with 6 samples.

Results

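The transcripts described here are those of 10 genes of the bone morphogenetic protein (BMP) pathway, the Smad genes Smad1, Smad4, Smad5, Smad6, Smad7 and Smad9 and the inhibitor-of-differentiation genes Id1, Id2, Id3 and Id4. They were chosen by name, out of 18193 genes with a probe set of their own on an Affymetrix whole-genome mouse array, and each was read from its probe set with the highest mean. Their levels were read in 3 relay stations of the auditory brainstem, the medial nucleus of the trapezoid body or MNTB, the lateral superior olive or LSO and the ventral cochlear nucleus or VCN, at postnatal day 3 (P3) and postnatal day 14 (P14). All 6 arrays came from male C57BL/6J mice, for which the labels name no mutation, transgene or drug, and each array held 1 RNA pool, of 6 animals at P3 and of 3 at P14. The nuclei were dissected and no sorting step is named, so a pool can hold any cell type of the dissected piece.

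BMP ligands bind a pair of receptor kinases, which phosphorylate the receptor-regulated Smads encoded by Smad1, Smad5 and Smad9. These join the common partner Smad4, enter the nucleus and switch genes on, among which the Id genes are the textbook targets. Smad6 and Smad7 encode inhibitory Smads, which block the receptors and the receptor-regulated Smads in a feedback loop. The Id proteins carry a helix-loop-helix domain but no DNA-binding region, so they hold E proteins and other basic helix-loop-helix (bHLH) factors in inactive pairs. In the developing nervous system the Id genes are known for keeping precursor and glial cells from differentiating, and Smad7 is known in mouse oligodendrocytes as a factor that favours myelination.

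With 1 array for each nucleus and age, no condition was repeated. The error of an age difference is therefore its spread over the 3 nuclei, moderated over all genes by limma. A difference between nuclei takes its error from the same residual spread, which all 6 arrays share. The p-values thus rest on how evenly the age difference repeated over the nuclei, and not on repetition over animals. The labels do not say whether 1 set of animals gave all nuclei of an age. Array medians lay between 6.27 and 6.31 log2 units. The 3' control probe set of Gapdh exceeded the 5' one, a sign of RNA quality, by 1.06 to 1.11 log2 units on the P14 arrays but 1.21 to 1.41 on the P3 arrays, so it moved with age, as did the pool size. These cannot be told apart from age. Transmitter genes were used to check the labels of the nuclei. The glycine transporter gene Slc6a5 was higher in MNTB than in VCN by 1.94 log2 units (adjusted p = 0.0323, limma) and the glutamate transporter gene Slc17a6 was lower in MNTB than in VCN, with a difference of -2.66 (adjusted p = 0.0274, limma). Neither passed between LSO and MNTB or VCN. Slc32a1, of the same list, passed for VCN minus LSO (-1.09, adjusted p = 0.0259, limma) and for MNTB minus VCN (1.72, adjusted p = 0.00651, limma). It did not pass for MNTB minus LSO (adjusted p = 0.223, limma).

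The first question was how these genes changed between P3, before hearing begins in mice, and P14, shortly after. Smad7 rose in every nucleus, by 5.13-fold in the mean, whereas Smad1, Smad5 and Id4 fell by 0.27 to 0.44 log2 units, with a larger fall of 1.01 in another probe set of Id4. Smad4, Smad9, Id1, Id2 and Id3 did not pass the test, and Smad6 was not above the background of the array. Thus 1 of 9 tested members was higher at P14 and 3 were lower at an adjusted p under 0.05 (limma, two-sided, Benjamini-Hochberg over 13015 genes). Of all genes tested, 23.4% were called higher and 17.7% were called lower. The P3 and P14 arrays did not overlap for 2 members that were higher and 4 that were lower at P14, where 30.3% and 23.4% of all genes did so. With 9 members these counts do not set the group apart. The median difference of the members was -0.22 log2 units, beside 0.03 over all tested genes.

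**Figure D1:**
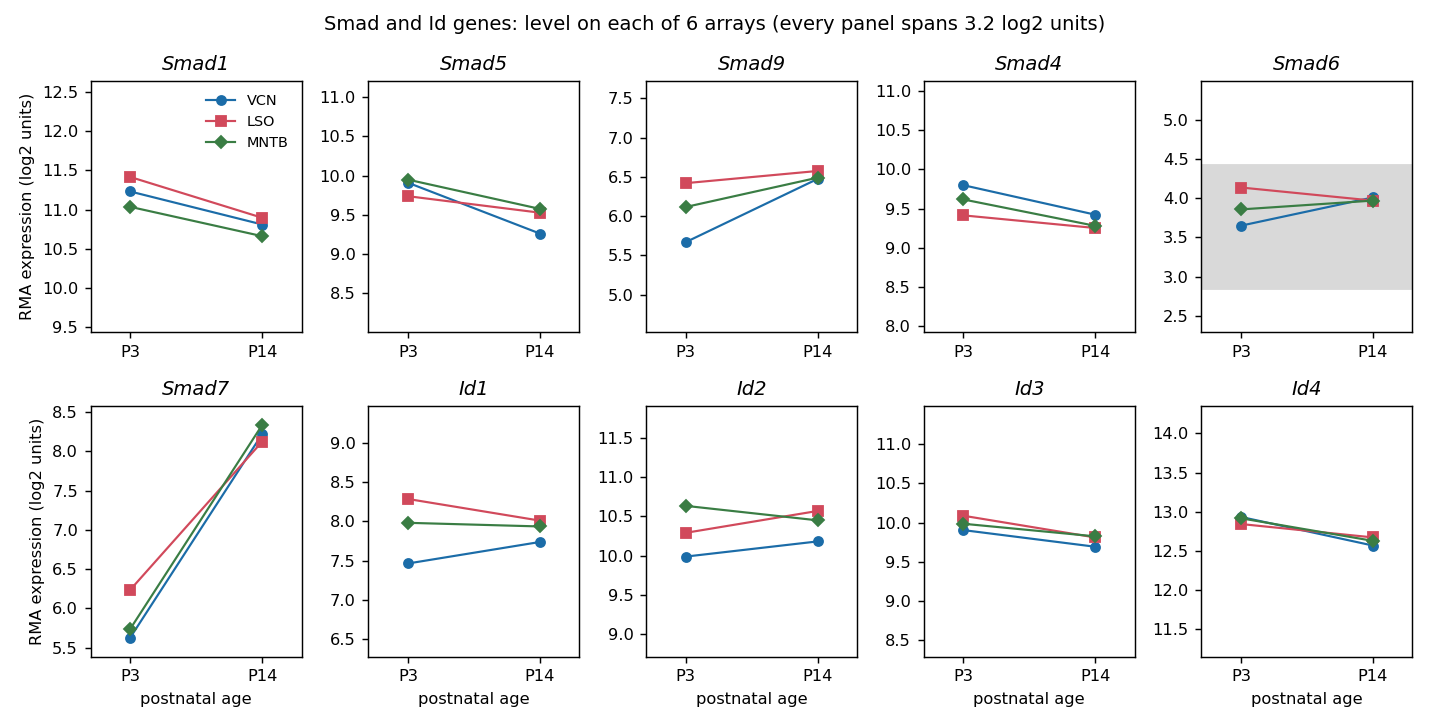
Expression (log2 units, vertical axis) of the 10 genes at P3 and P14, with 1 point per array and 1 line per nucleus. Every panel spans the same height. Smad7 climbs from 5.63 to 6.24 at P3 to 8.12 to 8.34 at P14, whereas the other lines run nearly flat, and all Smad6 points lie in the grey band of an unspiked control (2.84 to 4.42).

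Of the receptor-regulated Smads, Smad1 and Smad5 fell and Smad9 did not pass. In the order VCN, LSO and MNTB, Smad1 read 11.23, 11.41 and 11.03 at P3, and 10.81, 10.90 and 10.66 at P14. Every P14 array lay below every P3 array. The difference was -0.44 ± 0.07 log2 units (standard error, 3 nuclei, adjusted p = 0.00558), a fall to a level 1.35-fold lower, with -0.42 in VCN, -0.52 in LSO and -0.37 in MNTB. Smad5 read 9.91, 9.74 and 9.95 in VCN, LSO and MNTB at P3, and 9.26, 9.53 and 9.58 at P14. Its ages did not overlap either, and the VCN array of P14 was the lowest of the 6. Smad5 fell by 0.41 ± 0.11 log2 units (adjusted p = 0.0314), by 0.65 in VCN but by 0.21 in LSO. That call was lost without either VCN array (adjusted p = 0.0906 without P3 and 0.0851 without P14) and without either MNTB array (adjusted p = 0.110 and 0.107).

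Smad9, which encodes the receptor-regulated Smad also called Smad8, read 5.67, 6.42 and 6.12 on the P3 arrays of VCN, LSO and MNTB, and 6.47, 6.58 and 6.49 at P14. The P3 arrays were widely spread, with VCN lowest, and the P14 arrays lay close together above all of them. The difference of 0.45 ± 0.16 log2 units had a 95% interval of 0.05 to 0.84 and did not pass (adjusted p = 0.0726). Its size ranged from 0.16 in LSO to 0.81 in VCN.

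Differences within an array between the 3 genes were compared in a pairing chosen after their values were seen. The log ratio of Smad9 to Smad1 rose from P3 to P14 by 1.23 in VCN, 0.67 in LSO and 0.75 in MNTB, a mean of 0.88 log2 units. For Smad9 against Smad5 the mean was 0.86, with 0.37 in LSO as the smallest. The ratio of Smad1 to Smad5 differed between ages by -0.03. These values are a description, since an exact permutation test of 3 arrays against 3 cannot go below p = 0.1.

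Smad4, the common partner, read 9.80, 9.41 and 9.62 on the P3 arrays of VCN, LSO and MNTB, and 9.42, 9.25 and 9.28 at P14. The ages overlapped by a hair, since the highest P14 array, VCN, lay just above the lowest P3 array, LSO. The difference was -0.29 ± 0.10 log2 units with a 95% interval of -0.53 to -0.06, and it missed the threshold (adjusted p = 0.0551). It passed when quantile normalization was repeated (-0.35, adjusted p = 0.0293, limma) and with a stricter filter on low values (adjusted p = 0.0499). Smad4 passed under no other alternative. With an array left out its difference was -0.36 to -0.25, and the median of its probe sets gave -0.06 (adjusted p = 0.687, limma).

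Of the inhibitory Smads, Smad7 could be measured and Smad6 could not. Smad7 read 5.63, 6.24 and 5.74 on the P3 arrays of VCN, LSO and MNTB, and 8.22, 8.12 and 8.34 at P14. All P3 arrays were low and all P14 arrays high, and the gap between them was far wider than the spread within either age. Smad7 rose by 2.36 ± 0.18 log2 units, or 5.13-fold (95% interval 1.92 to 2.80, adjusted p = 0.00054), by 2.59 in VCN, 1.89 in LSO and 2.60 in MNTB. Of 13015 tested genes, 130 (0.999%) had a larger difference with age in either direction. The smaller rise in LSO went with a higher P3 level there. Whether the rise differed between nuclei could not be tested with 1 array each.

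Smad6 read 3.65, 4.14 and 3.86 in VCN, LSO and MNTB at P3 and 4.01, 3.97 and 3.97 at P14. All 6 values lay within the range of the unspiked control probe sets (2.84 to 4.42), so that no level and no change can be given for it and it was left out of the test by the filter on low values. Its single probe set does not show whether the transcript was absent.

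**Figure D2:**
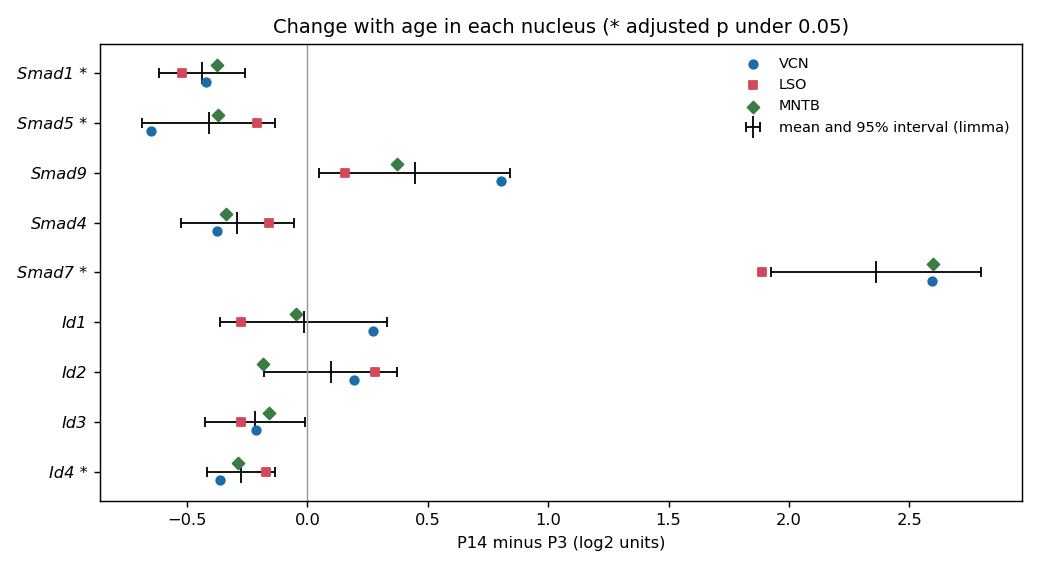
Difference between P14 and P3 (log2 units) for the 9 tested members. Coloured points are the single nuclei, black bars the mean with its 95% interval from limma, and stars mark an adjusted p under 0.05. Smad7 stands alone at 2.36, while the other means lie between -0.44 and 0.45.

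The Id genes changed little beside Smad7. The promoters of Id2, Id3 and Id4 are printed here because the Id genes are the known targets of the BMP Smads. They are the 250 bases before the start in RefSeq (build GRCm38.p6), 5′ to 3′ on the gene's own strand, for Id2 at chr12:25096093-25096342 (minus strand), Id3 at chr4:136143572-136143821 (plus strand) and Id4 at chr13:48260866-48261115 (plus strand). Capitals mark GGCGCC, the GC-rich site known for BMP Smads, and CAGAC, the core of the Smad box, searched on both strands (GTCTG is CAGAC read on the other strand).
Id2: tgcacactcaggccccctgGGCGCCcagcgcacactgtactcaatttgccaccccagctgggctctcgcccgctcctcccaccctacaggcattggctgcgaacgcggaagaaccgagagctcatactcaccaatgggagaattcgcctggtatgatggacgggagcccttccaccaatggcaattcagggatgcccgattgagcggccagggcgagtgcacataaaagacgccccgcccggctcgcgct
Id3: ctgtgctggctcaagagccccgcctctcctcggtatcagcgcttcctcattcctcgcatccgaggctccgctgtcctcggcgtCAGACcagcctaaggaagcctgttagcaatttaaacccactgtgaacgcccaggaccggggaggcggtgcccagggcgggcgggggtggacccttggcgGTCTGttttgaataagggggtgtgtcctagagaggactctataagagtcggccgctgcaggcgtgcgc
Id4: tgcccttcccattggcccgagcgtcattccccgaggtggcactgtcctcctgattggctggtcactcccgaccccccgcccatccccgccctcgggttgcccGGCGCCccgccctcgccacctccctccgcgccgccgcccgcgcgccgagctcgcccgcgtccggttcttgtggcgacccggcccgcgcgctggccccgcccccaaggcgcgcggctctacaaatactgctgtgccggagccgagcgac

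GGCGCC was found in Id2 at -231 and in Id4 at -148, and CAGAC in Id3 at -167 and -68, counted from the start to the first base of the match. These motifs do not overlap each other there. Over 32851 promoter windows of the same length, 9.59% held GGCGCC and 42.2% held CAGAC on either strand. The E box CANNTG, the site of bHLH factors, occurred in Id2 and was not in the windows of Id3 and Id4, beside 66.2% of all windows. Windows were used for 7 of the 10 members. Members on chromosome 18, which are Smad4 and Smad7, were left out of this search, and no window was found for Id1. In the Smad windows used, GGCGCC was found in Smad9 at -51. In windows of different starts, Smad5 held GGCGCC at -19 and CAGAC at -21. The windows of Smad1 and Smad6 held none of the 3 motifs. The GC content of the members' windows, at up to 75.6%, was above the median of 52.4% for all windows, which bears on how often GC-rich letters occur. A match is a run of letters in this window and shows no binding.

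Id4 was the only Id gene whose fall passed the test. It read 12.93, 12.84 and 12.92 in VCN, LSO and MNTB at P3 and 12.57, 12.67 and 12.63 at P14. All P14 arrays lay below all P3 arrays, with little spread within an age. Id4 fell by 0.27 ± 0.06 log2 units (adjusted p = 0.0127), which is 1.21-fold. The median of its 3 probe sets gave a larger fall of 1.01 (adjusted p = 0.000804, limma). On every array that median is the second probe set described below, so it is not a separate reading. The call for the brightest probe set of Id4 was lost when an MNTB array was left out (-0.27 for either age, which is 1 check). It was also lost with variances moderated without an intensity trend (adjusted p = 0.0761, limma).

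Id3 read 9.90, 10.09 and 9.98 at P3 and 9.69, 9.81 and 9.82 at P14 in VCN, LSO and MNTB. The ages did not overlap, yet the difference of -0.22 ± 0.09 log2 units did not pass over all genes (95% interval -0.42 to -0.01, adjusted p = 0.0895).

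Id1 and Id2 had age differences of both signs. Id1 read 7.46, 8.29 and 7.98 at P3 and 7.74, 8.01 and 7.94 at P14 in VCN, LSO and MNTB. It was higher at P14 in VCN by 0.27, lower in LSO by a difference of -0.28 and nearly level in MNTB at -0.05. The mean was -0.02, with a 95% interval of -0.36 to 0.33 (adjusted p = 0.940). Id2 read 9.99, 10.29 and 10.63 at P3 and 10.18, 10.57 and 10.45 at P14. Its differences were 0.19 in VCN, 0.28 in LSO and -0.18 in MNTB, with a mean of 0.10 and a 95% interval of -0.18 to 0.37 (adjusted p = 0.526). For both genes the intervals exclude a change as large as a 2-fold one in the mean of the 3 nuclei.

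The array carries 21 probe sets for the 10 genes, and 6 genes have more than 1. Fitted over all 27000 probe sets with a mean above the filter, 9 of the members' 19 tested probe sets passed, beside 41.2% of all. Smad7 was read alike by both of its probe sets, the second rising by 2.59 (adjusted p = 0.000245), with 2.54 in VCN, 2.31 in LSO and 2.91 in MNTB. The probe set of highest mean has a name ending in _x_at, which marks probes that may also bind other transcripts, and the second has no such mark. For Smad1 all 3 probe sets passed, at -0.44, -0.57 and -0.53. For Smad5 the sets at -0.41 and -0.46 passed, and the set of lowest mean gave -0.40 without passing (adjusted p = 0.0894).

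Id4 was read unequally by its 3 probe sets. The brightest gave the fall of 0.27 above. The second read 10.62, 10.63 and 10.49 in VCN, LSO and MNTB at P3 and 9.52, 9.79 and 9.41 at P14, a fall of 1.01 ± 0.09 log2 units (adjusted p = 0.000733). The third read 8.91 to 9.02 at P3 and 8.71 to 8.93 at P14, a difference of -0.13 that did not pass (adjusted p = 0.351). All 3 had the same sign in all 3 nuclei, but the size of the decline depended strongly on the probe set, with means from -0.13 to -1.01. Which transcript ends they match was not analysed here. Smad4 also varied, with differences of -0.29, -0.06 and -0.30, none of which passed. The second probe set of Id2 repeated the pattern of the first, with 0.20 in VCN, 0.27 in LSO and -0.22 in MNTB.

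**Figure D3:**
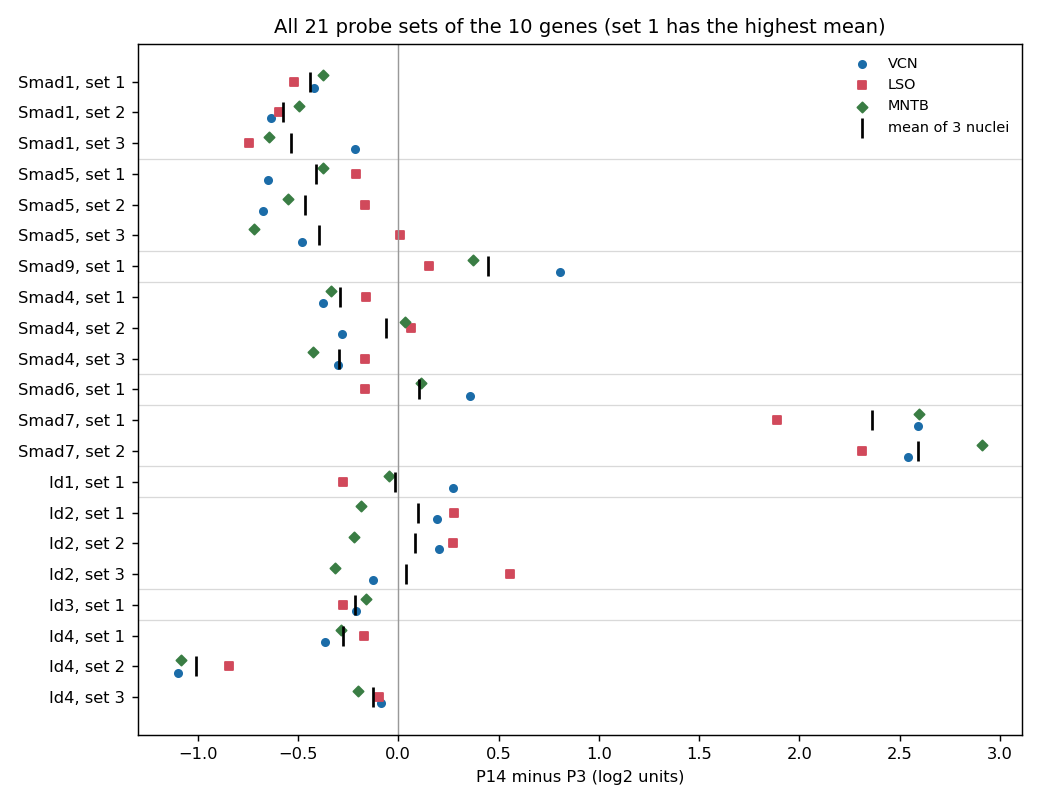
Difference between P14 and P3 (log2 units) for all 21 probe sets, numbered within a gene from the highest mean down. Coloured points are the 3 nuclei and black bars their mean. Both Smad7 sets lie at 1.89 or more in every nucleus, and the second Id4 set, at -1.01, lies apart from the other sets of Id4.

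The second question was whether the nuclei differ. No member passed any of the 3 contrasts between nuclei in limma, where 0.161% of all genes passed for MNTB minus LSO, 0.638% for MNTB minus VCN and 0.369% for VCN minus LSO. At an unadjusted p under 0.05 there was 1 member in the first contrast (Smad1), 1 in the second (Id2) and 2 in the third (Id1 and Id2), and 899, 1231 and 1176 of all 13015 genes.

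Id1, Id2 and Id3 were each lowest in VCN at both ages. Id1 differed between VCN and LSO by -0.82 at P3 and -0.27 at P14, with a mean of -0.55 ± 0.17 log2 units (95% interval -0.97 to -0.12, adjusted p = 0.410). Id2 was higher in MNTB than in VCN by 0.65 at P3 and 0.27 at P14, a mean difference of 0.46 ± 0.14 (95% interval 0.12 to 0.79, adjusted p = 0.347). Among the 3 nuclei the order of Id2 was VCN, LSO, MNTB at P3 and VCN, MNTB, LSO at P14, so the upper places changed hands, and the MNTB minus LSO difference of 0.11 had an interval of -0.22 to 0.45. Id3 in VCN lay 0.18 below LSO at P3 and 0.12 below it at P14 (differences of -0.18 and -0.12). The brightest probe set of Id4 did not separate the nuclei, with all 3 mean differences between -0.01 and 0.02 and interval bounds no wider than -0.18 and 0.19. The other sets of Id4 read lowest in MNTB at both ages, the second at 10.49 and 9.41 and the third at 8.91 and 8.71. With the median of the probe sets, which for Id4 is the second set, no member passed between nuclei either. The VCN pieces also carried the neuronal bHLH genes Neurod1 and Neurod2 at much higher levels than LSO, by 3.48 and 2.97 log2 units (adjusted p = 0.00816 and 0.00202). These genes are known from cerebellar granule cells, and their part in the Id values was not tested.

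By its brightest probe set Smad1 had the same order at both ages, LSO highest, VCN next and MNTB lowest. MNTB lay below LSO with differences of -0.38 at P3 and -0.23 at P14 (mean -0.31, 95% interval -0.52 to -0.09, adjusted p = 0.527, limma), whereas the intervals of the neighbours in that order, VCN minus LSO (-0.35 to 0.08) and MNTB minus VCN (-0.39 to 0.04), include 0. The other sets of Smad1 also read lower in MNTB than in LSO at both ages, but the place of VCN varied. The second set read 10.94 in VCN and 10.91 in LSO at P3. The third was lowest in VCN at P3 (6.39) and highest there at P14 (6.18). Smad4, read from its brightest probe set, was highest in VCN at both ages, by 0.38 over LSO at P3 and 0.17 at P14 (mean 0.28, 95% interval -0.01 to 0.57, adjusted p = 0.580, limma). That order was not shared by its other sets. Both read lowest in VCN at P14 (9.11 and 7.73), and at P3 the second was highest in VCN (9.39) and the third in MNTB (8.26). Smad9 kept the order LSO, MNTB, VCN from high to low at both ages, with a VCN minus LSO difference of -0.75 at P3 and -0.10 at P14 (mean -0.43, 95% interval -0.91 to 0.06, adjusted p = 0.620). For Smad5 and Smad7 the order was not the same at P3 and P14. Smad7 in LSO was above VCN at P3 (VCN minus LSO -0.61) and slightly under it at P14 (0.10), but its second probe set read higher in LSO than in VCN at both ages (5.89 and 5.59 at P3, 8.21 and 8.14 at P14).

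**Figure D4:**
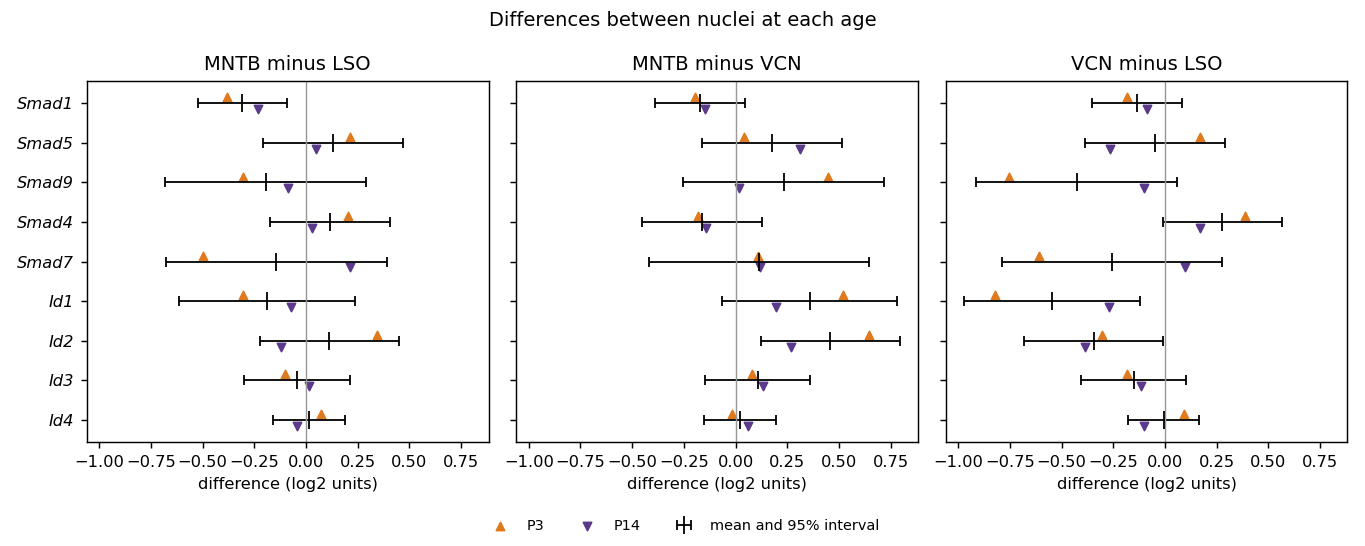
Differences between nuclei (log2 units) for the 9 tested members in 3 contrasts. Triangles give the single ages, black bars the mean with its 95% interval from limma. The intervals of Smad1 in the first panel, Id2 in the second and Id1 and Id2 in the third leave out 0, and none passes after adjustment over all genes.

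The rest of the pathway was read from 5 lists of ligands, receptors, antagonists, other Smads with their regulators, and other responsive genes. Of 61 tested genes, 16 rose and 16 fell, with a median difference of 0.01. Among 13 ligands 4 rose and 3 fell, with the BMP genes Bmp5 and Bmp4 at 1.86 and 1.69 in front. Among 15 receptors and co-receptors 3 rose and 5 fell. Acvr1c, the activin-type receptor ALK7, rose by 2.02 ± 0.13 (adjusted p = 0.000416), from 4.76 to 4.86 on the P3 arrays to 6.70 to 6.99 on the P14 arrays. The activin and BMP receptor gene Acvr2a fell by 1.36, and the BMP co-receptor gene Rgma fell by 0.81. Of 9 antagonists 2 rose and 2 fell, among them the BMP-binding protein gene Bmper at -0.94 and the follistatin-like gene Fstl1 at 0.86.

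Of 15 tested regulators of the Smads 5 rose and 4 fell. The co-repressor gene Tgif2 fell by 1.0 and the ubiquitin ligase gene Nedd4l fell by 0.90, whereas Tob1, an antiproliferative gene whose product curbs BMP Smads in mouse bone, rose by 0.98. Zeb2 encodes a Smad-binding repressor that in mouse oligodendrocytes is known to act upstream of Smad7. It read 9.94, 9.87 and 10.12 in VCN, LSO and MNTB at P3 and 10.70, 10.80 and 11.11 at P14, a rise of 0.90 ± 0.09 (adjusted p = 0.000952). Its relative Zeb1 fell by 0.62. The TGF-beta and activin receptor Smads were at -0.40 for Smad2 (adjusted p = 0.0464) and -0.27 for Smad3, which did not pass (adjusted p = 0.0961).

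Other genes known to respond to BMP or TGF-beta gave 2 higher and 2 lower of 9. The Notch and BMP effector gene Hes5 fell by 1.52, Hey2 fell by 0.40, the matrix gene Ccn2 rose by 1.13 and Hey1 rose by 0.38. Msx1, Msx2 and Atoh8, which also respond to BMP, had differences of -0.05, 0.13 and 0.01 and did not pass. The bHLH factors and E proteins that Id proteins oppose gave 2 higher and 3 lower of 8 tested. Hes6 fell by 0.87, Neurod2 fell by 0.51 and the E protein gene Tcf3 fell by 0.47, while the oligodendrocyte factors Olig2 and Olig1 rose by 0.53 and 0.24. The E protein genes Tcf4 and Tcf12 had differences of -0.08 and -0.10 that did not pass.

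Cell type markers moved with age beside these genes, and in pooled tissue fewer cells of a type and less RNA per cell cannot be told apart. All 13 tested markers of myelinating oligodendrocytes rose, with a median of 3.11, and their summed level went from 13.52 to 14.58 log2 units at P3 to 16.02 to 16.16 at P14. At P3 that sum was highest in VCN (14.58), lower in MNTB (13.84) and lowest in LSO (13.52). Smad7 at P3 was highest in LSO by both of its probe sets, and lowest in VCN by the first and in MNTB by the second. Of 14 endothelial and pericyte markers 12 rose (median 0.84, summed level 12.65 to 12.94 at P3 and 13.58 to 13.69 at P14). Of 8 microglial markers 6 rose (summed level 11.89 to 12.42 at P3 and 12.57 to 12.85 at P14), and of 6 meningeal markers all 6 rose (10.31 to 10.40 and 11.37 to 12.07). Of 12 astrocyte markers 5 rose and 2 fell (15.02 to 15.20 and 15.41 to 15.57).

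Markers of dividing cells ran the same way as Smad1, Smad5 and Id4, since 8 of 8 fell, with a median of -1.07 and a summed level of 12.64 to 12.82 at P3 and 11.84 to 12.19 at P14. Of 7 markers of oligodendrocyte precursors 2 rose and 2 fell (12.75 to 13.21 and 12.72 to 13.16). Of 8 neuronal markers 3 rose and 4 fell (15.22 to 15.45 and 15.22 to 15.47). Of 8 transmitter and channel genes of auditory neurons 4 rose and none fell (13.27 to 13.84 and 14.29 to 14.75). Only 1 of 7 choroid plexus markers could be tested. That marker, Ttr, read 6.61 to 6.93 on 5 arrays and 12.58 on that of VCN at P14. Otx2, of the same list but under the filter, read 9.34 on the VCN array of P3, 6.52 on that of P14 and 3.04 to 3.34 elsewhere. On that VCN array of P3, Ttr read 6.93 and the other listed genes under the filter read 4.11 to 5.59. Smad7 in VCN at P14 lay between LSO and MNTB by its first probe set (8.22) and lowest by its second (8.14). No marker in these lists lay at or below the unspiked control on every array. The part of any cell type in the changes of the Smad and Id genes was not tested.

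**Figure D5:**
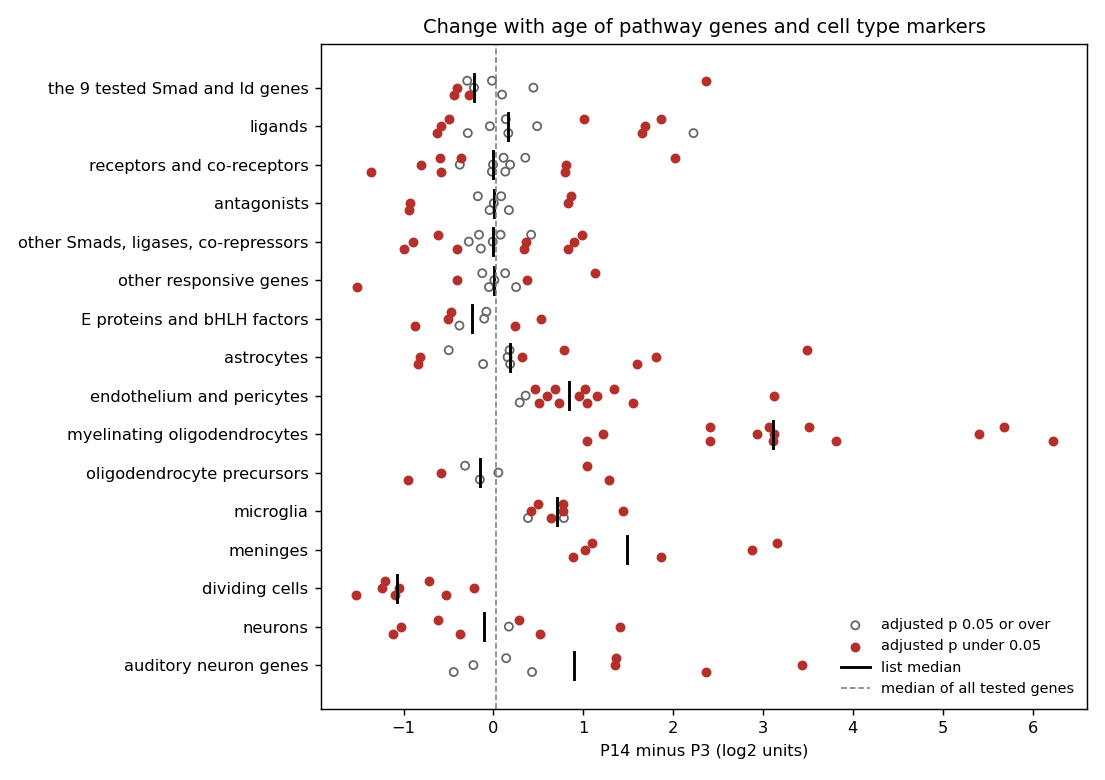
Difference between P14 and P3 (log2 units) for the tested genes of the Smad and Id group, the pathway lists and the marker lists, 1 point per gene. Filled points passed at an adjusted p under 0.05, black bars are list medians and the dashed line is the median of all tested genes, 0.03. The pathway lists spread to both sides, and the oligodendrocyte markers lie furthest right with a median of 3.11.

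Smad7 was the only member whose 6 values spanned at least 1 log2 unit, and the genes of most like pattern were sought for it. Likeness was the root mean square deviation between profiles over the 6 arrays, each centred on its own mean, among 13006 other tested genes. The closest were Fgf1, a fibroblast growth factor gene, at 0.13 log2 units, Cyp27a1, a sterol hydroxylase gene, at 0.16, and Kcna1, a low-threshold potassium channel gene, at 0.16. Their differences between P14 and P3 were 2.28, 2.37 and 2.37. These points share the 6 arrays and the age difference, so the likeness is a description.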

How the data were processed

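Total RNA from 3 auditory brainstem nuclei at 2 ages was amplified and hybridised to Affymetrix arrays, 1 pool per array. The authors deposited 1 log2 value per probe set and array, made with RMA per the submitters' processing notes (version not given in the sources used here). RMA equalises the arrays' distributions, so a shift shared by most genes would not be seen.

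The platform annotation gave 1 gene for 34945 of 45101 probe sets. A gene was read from its probe set of highest mean, and 13015 genes with a mean at or above the 40th percentile (5.57) were fitted with limma 3.58.1 (R 4.3.3), age and nucleus additive, variances moderated with an intensity trend, two-sided, Benjamini-Hochberg, threshold 0.05. There were 2 residual and 4.00 prior degrees of freedom. The fit was also run on simulated data, the outcome of which is not given here. Background is the range of the unspiked Trpn controls. The planned wider set of bacterial controls was not used, since the others carried spiked signal. The number of arrays limits precision, and no scan batch is given.

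The lists hold 182 entries, of which 154 were tested and 172 had a probe set. All 10 members are named, with up to 4 called genes per list by size, 3 genes of like pattern, and others from the lists chosen after their values were seen. Members and lists were chosen with earlier results of these data known. Alternatives were other filters, probe set rules, scalings, floors and models, and each array left out.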

Additional observations from a re-analysis of the deposited data

Results flagged for a closer look

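Id1 and Id2 had age differences of opposite sign in different nuclei. For Id1 P14 minus P3 gave 0.27 in VCN, -0.05 in MNTB and -0.28 in LSO, a span of 0.55 log2 units. For Id2 it gave 0.28 in LSO, 0.19 in VCN and -0.18 in MNTB, a span of 0.46. Each nucleus has 1 array per age, so these differences between nuclei were not tested. Of all tested genes 32.1% had both signs among the 3 nuclei.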

How the results depend on the processing

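Smad7 and Smad1 passed the test for age under each alternative in which they were fitted, with the 6 arrays left out in turn giving 2.24 to 2.60 for Smad7 and -0.47 to -0.40 for Smad1. Smad7 and Smad9 were not tested under the filter at the 60th percentile, since their means lie under it. Leaving out either array of a nucleus gave the same estimate, so these fits amount to 1 check per nucleus. Smad5 kept its call without an LSO array (-0.51) and lost it without a VCN (-0.29) or an MNTB array (-0.43). Id4 kept its call without a VCN (-0.23) or an LSO array (-0.33) and lost it without an MNTB array (-0.27). Smad9, Id1, Id2 and Id3 passed under no alternative run, and Smad4 under none with an array left out. No member that passed changed sign.

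The number of members past the threshold for age was 4, and 2 to 4 with 1 array left out, with 2 without either MNTB array, when Smad1 and Smad7 remained. The number of all genes past it was 5351, and 3254 to 4785 with 1 array left out, the lowest when MNTB at P3 was left out, and 3282 when MNTB at P14 was. For nuclei the number of members was 0 under every alternative run. Repeated quantile normalization moved the median age difference of all genes by -0.05 and centring by 0.02. The fit pairs the ages by nucleus. Without that pairing (age alone) 4 members and 5086 genes passed. Under the median of its probe sets, which is the reading of the second set, Id4 fell by 1.01. That is over 1.5 times the 0.27 of its brightest set.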
